A study of Homo sapiens with 12 samples.

Results

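The genes described here had more RNA in AU-15330-treated than in DMSO-treated Z138 cells at 8 h. At 24 h they had a smaller excess, none or a deficit. Some kept a sizeable part, such as NFYC, with a difference of 0.50 at 8 h and 0.23 at 24 h. They are 89 of the 9963 genes whose mean normalised count reached 300 in at least 1 group. A gene was taken in when its AU-15330 minus DMSO difference on the log2(normalised count + 60) scale was at least 0.5 at 8 h and below 0.25 at 24 h. The rule leaves out 2 genes by name. Of the 584 genes that met the 8 h condition, these 89 (15.2%) met the 24 h condition as well, and the other 495 kept a difference of 0.25 or more. The members were thus chosen by their 8 h and 24 h differences, which use every library, and all their values below are descriptions without a test. No measure independent of the rule was used here, so none of their values was tested.

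RNA sequencing was done on Z138, a wild-type lymphoblast line established from a mantle cell lymphoma. Cells received AU-15330 at 0.5 µM for 8 h or 24 h, or the vehicle DMSO for the same times. The labels list 3 samples in each of the 4 groups, but DMSO at 8 h had 2 distinct libraries in the deposited table, so n = 3 for AU-15330 and n = 2 for DMSO at 8 h, and n = 3 for each at 24 h. The labels give the batch as the time, so time and batch cannot be told apart, and they do not say whether the samples were separate cultures.

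AU-15330 is a PROTAC, a molecule that brings a ubiquitin ligase to its targets so that the proteasome destroys them. It removes the ATPases that power the SWI/SNF (BAF) remodellers of chromatin, SMARCA2 and SMARCA4, together with PBRM1, which is part of PBAF. These complexes slide or evict nucleosomes and keep enhancers and promoters open, so their loss can change transcription in both directions. Genes with short-lived RNA, such as the immediate early transcription factors FOS and EGR2, can move within hours and move back as quickly.

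The 11 libraries summed to between 57824748 and 60768298 normalised counts. SMARCA4 RNA differed by -0.16 at 8 h and -0.28 at 24 h between AU-15330 and DMSO, and SMARCA2 RNA differed by -0.48 and -0.87. PBRM1 differed by 0.00 and -0.16. The degrader acts on protein, so these RNA levels do not check the treatment. All 6 B cell markers were listed, and their summed counts were 30051 to 32964 with AU-15330 against 54649 to 56939 with DMSO at 8 h, and 23950 to 25762 against 74735 to 75024 at 24 h. The 2 markers of mantle cell lymphoma, CCND1 and SOX11, summed to 152879 to 161609 with AU-15330 against 159106 to 162498 with DMSO at 8 h, and 173590 to 180760 against 169687 to 172801 at 24 h, most of it CCND1. SOX11 alone was at 5984 to 6542 with AU-15330 against 4833 to 6045.5 with DMSO at 8 h, and at 10879 to 11539 against 4640 to 5332 at 24 h, where the groups were apart. Of 6 T cell markers 5 were listed, with sums of 259 to 345 against 799 to 806 at 8 h and 120.2 to 146 against 814 to 863 at 24 h, nearly all of it CD3G. Of 5 fibroblast markers 3 were listed, with sums of 174 to 324 against 649 to 989 at 8 h and 76.2 to 233 against 1196 to 1278 at 24 h, nearly all of it COL1A1. The 3 listed of 6 myeloid markers summed to at most 44.0 with AU-15330 and 75.8 with DMSO, and the 4 listed of 5 erythroid markers to at most 21.99 and 44.4. TRAC was at 0 in every AU-15330 library at 8 h, but only at 0.97 to 2.65 with DMSO, so both were near the floor. At 24 h TRAC was at 10.2 to 19.4 with AU-15330 against 23.7 to 34.2 with DMSO. In bulk RNA, fewer cells of a type and less RNA per cell cannot be told apart. The part of these marker levels in the results below was not tested.

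Most members were modest at 8 h. The 8 h difference ran from 0.50 to 2.10 with a median of 0.58, against a median of 0.04 over the 9963 genes. It was below 0.6 in 48 members and at least 1 in 10. At 24 h the difference ran from -1.37 to 0.25 with a median of 0.12, against 0.01 over the 9963 genes. It lay within 0.25 of 0 in 80 members and was below 0 in 24. The 9 members with a difference of -0.25 or less at 24 h were FOS, KLF2, AHNAK, TLN2, GPD1L, SIPA1L3, MOB3A, MPZL1 and MAP2K3, so for these the sign turned between the times.

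**Figure D1:**
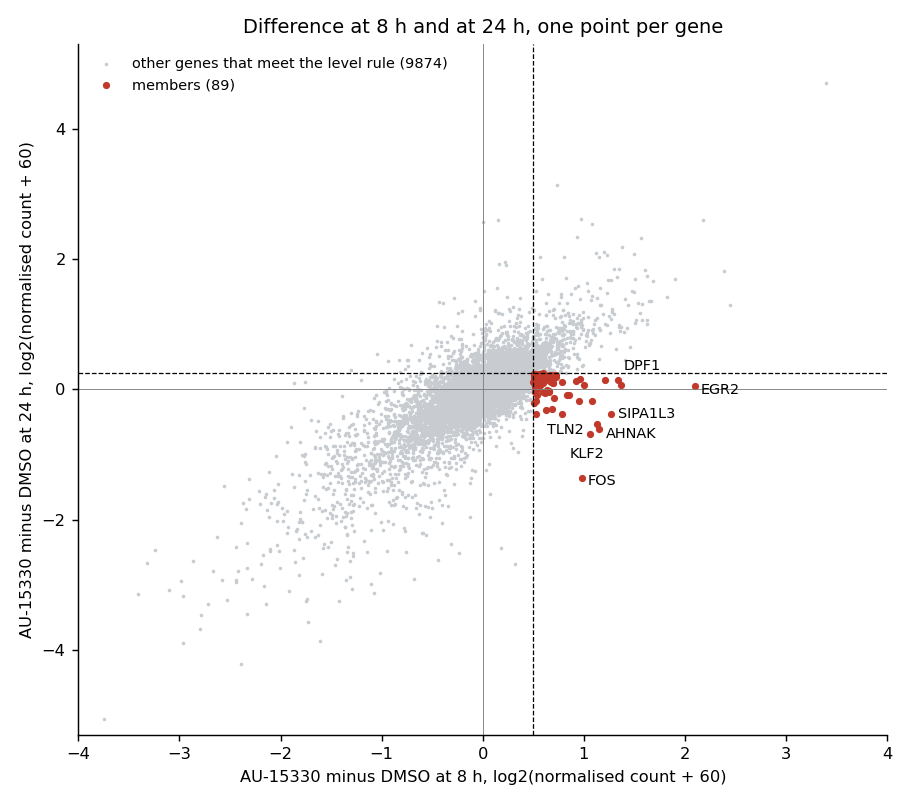
AU-15330 minus DMSO on the log2(normalised count + 60) scale at 8 h (x axis) and at 24 h (y axis), one point for each of the 9963 genes that meet the level rule. The dashed lines are the thresholds of 0.5 and 0.25 that set the 89 members (red) apart. Among the members EGR2 lies furthest right at 2.10 and FOS lowest at -1.37.

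Membership near the thresholds turned on small differences. Just inside the 8 h threshold lay TMEM177 at 0.501, NFYC at 0.502 and HERC1 at 0.504, and just outside it SLC5A6 at 0.499, RPAP2 at 0.499 and C11orf54 at 0.496. Just inside the 24 h threshold lay MAFA at 0.249, EGLN1 at 0.234 and PPP1R11 at 0.234, and just outside it TMEM241 at 0.254, SLC26A11 at 0.254 and NMB at 0.255. With 240 in place of 60 added to the counts, 56 genes met the rule, 51 of them members, and FOS was no longer among them. Leaving out 1 library at a time gave 88 to 127 genes, and 32 members met the rule each time.

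At 8 h the AU-15330 libraries all lay above the DMSO libraries in 86 of the 89 members, against a background of 36.7% of the 9963 genes. The rule used this contrast, so nothing is read from that count. The 3 whose libraries overlapped at 8 h were RPSAP58, CBWD6 and C6orf47. At 24 h the libraries overlapped in 59 members. AU-15330 lay wholly above DMSO in 21 members (background 31.1%) and wholly below in 9 (background 31.2%). The same 9 were wholly above DMSO at 8 h, against a background of 2.74% for both together, and nothing is read from these counts either. They were FOS, KLF2, TLN2, SIPA1L3, MOB3A, MPZL1, MAP2K3, HK2 and RHEBL1.

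In most members the AU-15330 side accounted for more of the narrowing between the times. AU-15330 at 24 h was below AU-15330 at 8 h in 85 of the 89 members, against 54.1% of the 9963 genes. The members' median difference was -0.37, against -0.02 over the 9963 genes and -0.04 over the 495 genes that kept their difference. DMSO at 24 h was below DMSO at 8 h in 25 members, against 48.0% of the 9963 genes. Here the members' median difference was 0.09, against 0.01 over the 9963 genes and over the 495. The fall with AU-15330 was larger than any rise with DMSO in 68 members, counting the 25 in which DMSO did not rise. In the other 21 the rise with DMSO was larger. Both sides contributed in 60 members, with AU-15330 lower and DMSO higher at 24 h than at 8 h. In 25 members both treatments were lower at 24 h. In EGR2, FOS, SLC2A3 and RPSAP58 both were higher at 24 h, DMSO by more. These values come from the libraries that set the rule, in which a member had to narrow from at least 0.5 to below 0.25. A high AU-15330 level at 8 h helped a gene to meet the rule, which by itself favours a lower level at 24 h. Nothing is therefore read from these counts.

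**Figure D2:**
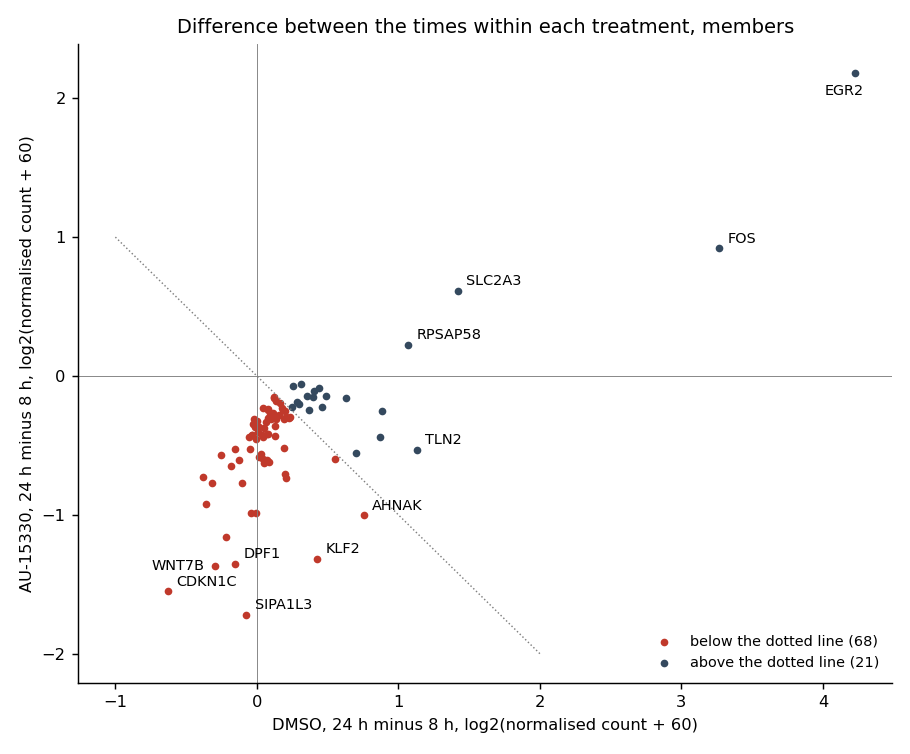
Difference between 24 h and 8 h within DMSO (x axis) and within AU-15330 (y axis) for the 89 members, log2(normalised count + 60). On the dotted line both sides contribute equally to the narrowing, below it AU-15330 contributes more (68 members, red), and above it DMSO contributes more (21 members, dark blue). EGR2 and FOS stand far to the right because their DMSO levels were higher at 24 h by 4.23 and 3.26.

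Transcription factors and chromatin proteins made up 14 members. Their differences had a median of 0.63 at 8 h and 0.14 at 24 h, and FOS and KLF2 were below 0 at 24 h. EGR2 encodes a zinc finger immediate early factor that restrains activation in lymphocytes. EGR2 (ENSG00000122877, chr10:62811996-62919900 on GRCh38 in GENCODE 29, minus strand) had 550.1, 582 and 589.7 normalised counts with AU-15330 at 8 h, against 77.6 and 99.1 with DMSO. At the later time EGR2 had 3412, 3072 and 2125 with AU-15330, against 2866, 3094 and 2254 with DMSO. The 8 h groups were far apart, while at 24 h both treatments were higher than at 8 h and their libraries overlapped. The difference was 2.10 ± 0.18 (standard error) at 8 h and 0.05 ± 0.16 at 24 h, and DMSO alone differed by 4.23 ± 0.18 between the times.

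FOS encodes a subunit of the AP-1 factor. FOS (ENSG00000170345, chr14:75278774-75282230, plus strand) had 107, 149.8 and 128 normalised counts with AU-15330 at 8 h, against 47.6 and 24.0 with DMSO. At 24 h FOS had 359, 334 and 209 with AU-15330, against 643, 1108 and 867 with DMSO. AU-15330 lay above DMSO at 8 h and below it at 24 h, in both cases without overlap, and the 8 h levels were low in every library. The difference was 0.98 ± 0.23 at 8 h and -1.37 ± 0.21 at 24 h. DMSO was higher at 24 h by 3.26 ± 0.23 and AU-15330 by 0.92 ± 0.21. The FOS promoter is shown because FOS turned sign most widely of the members and its promoter held the letters TATAAA. Of the 70 member promoters searched, 4 held these letters, at any position and on either strand. It covers chr14:75278578-75278877 on the plus strand (GRCh38.p14, RefSeq), from 250 bases before to 50 bases after the transcription start, with the TATAAA letters in capitals:
FOS: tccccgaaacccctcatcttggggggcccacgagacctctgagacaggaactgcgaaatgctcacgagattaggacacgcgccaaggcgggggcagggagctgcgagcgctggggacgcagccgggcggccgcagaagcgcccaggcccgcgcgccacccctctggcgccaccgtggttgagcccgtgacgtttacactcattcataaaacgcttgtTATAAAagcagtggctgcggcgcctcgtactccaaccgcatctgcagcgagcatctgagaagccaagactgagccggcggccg

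KLF2, a zinc finger factor tied to lymphocyte quiescence and trafficking, also turned sign. KLF2 (ENSG00000127528, chr19:16324817-16327874, plus strand) had 3428, 3813 and 4666 normalised counts with AU-15330 at 8 h, against 1771 and 1953 with DMSO. By 24 h KLF2 had 1359, 1528 and 1770.2 with AU-15330, against 2200.0, 2448 and 2971 with DMSO. The groups were apart at both times, in opposite directions. The difference was 1.06 ± 0.15 at 8 h and -0.69 ± 0.13 at 24 h. Unlike EGR2 and FOS, KLF2 was lower at 24 h than at 8 h with AU-15330, by -1.32 ± 0.13, and higher with DMSO, by 0.43 ± 0.15.

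DPF1 encodes a histone-reading subunit of the BAF complex that is best known from neurons. DPF1 (ENSG00000011332, chr19:38211006-38229714, minus strand) had 644, 660.1 and 543 normalised counts with AU-15330 at 8 h, against 258 and 162 with DMSO. At 24 h the AU-15330 libraries held 207, 235 and 173 and the DMSO libraries 192, 187 and 159. Only the AU-15330 libraries at 8 h stood apart from the rest. DPF1 reached the level minimum of 300 only through the mean of that group, 616, against 210, 205 and 179 in the others. The rule thus favoured this pattern, and nothing is read from it. The same holds for other members, DTWD2, SLC39A13, CBWD6 and RPL23AP7 among them. The difference was 1.34 ± 0.16 at 8 h and 0.14 ± 0.14 at 24 h. The other 10 members of this group had 8 h differences of 0.50 to 0.73. They were KDM1B, a histone lysine demethylase, PER2, a repressor of the circadian clock, ACTR5, a subunit of the INO80 remodeller, the factors MAFA, NFATC3, RXRB, GMEB1 and NFYC, and EMSY and NAIF1. PER2 had 2307, 2445 and 2240.3 with AU-15330 at 8 h against 1368 and 1429.8 with DMSO, and at 24 h AU-15330 still lay above DMSO in every library, at 1764, 1888 and 2018 against 1424, 1753 and 1711. Its difference was 0.71 ± 0.09 at 8 h and 0.21 ± 0.08 at 24 h.

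**Figure D3:**
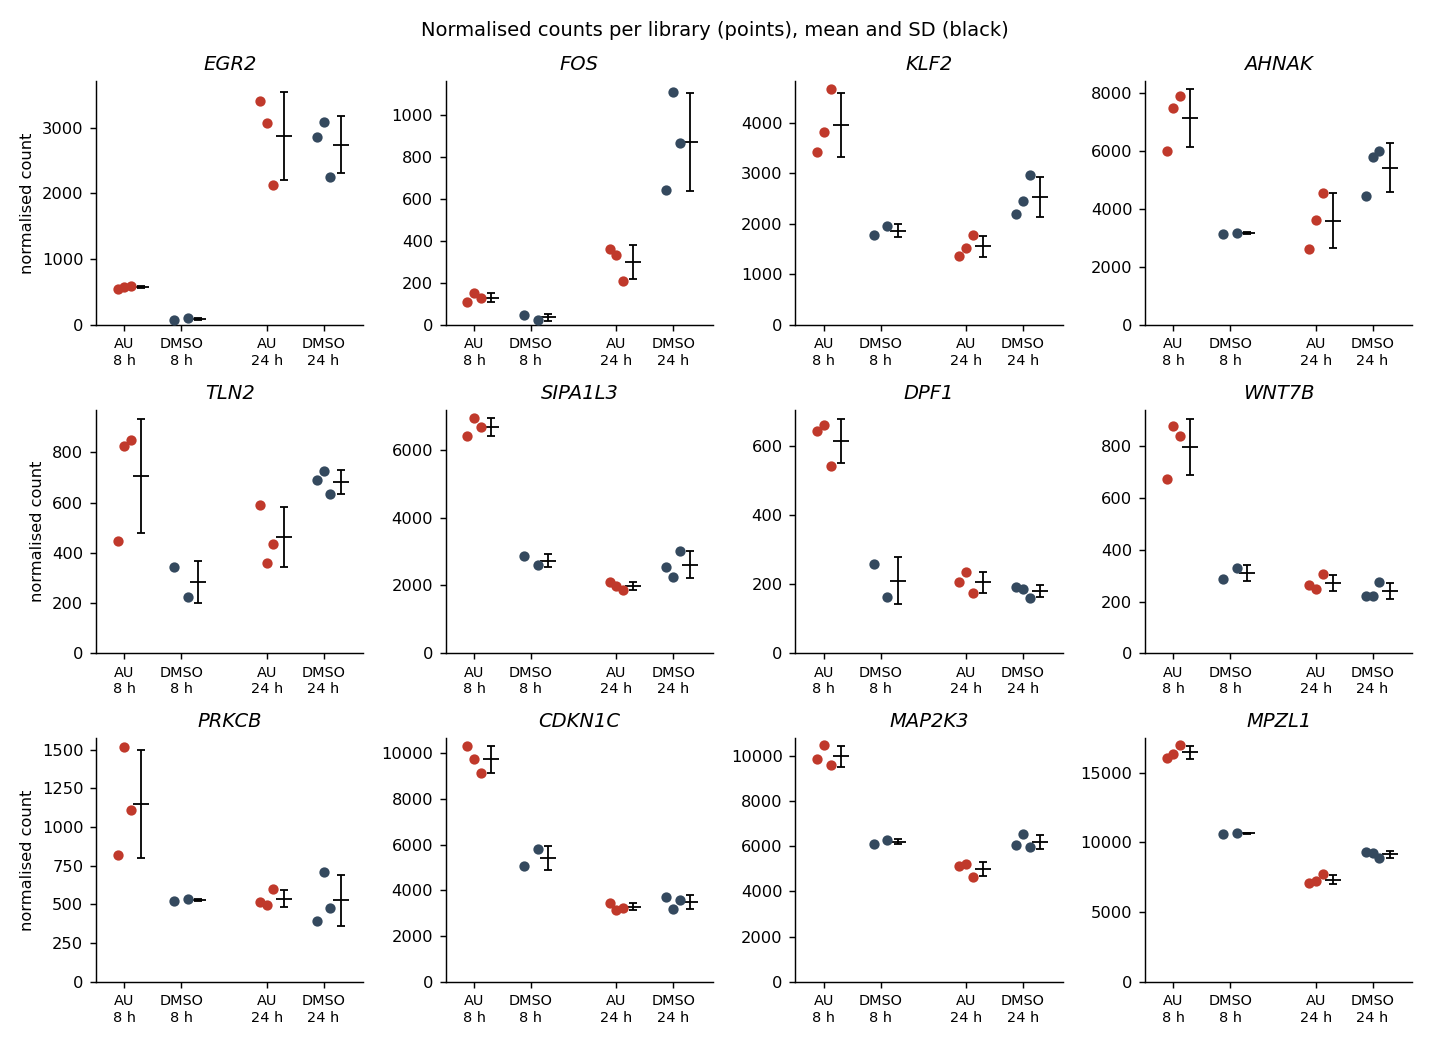
Normalised counts of 12 members in each library (y axis, linear from 0), AU-15330 in red and DMSO in dark blue, at 8 h and at 24 h. Points are libraries, and black marks give the mean and SD of 3 libraries, or of 2 for DMSO at 8 h. In DPF1, WNT7B, SIPA1L3 and CDKN1C the AU-15330 libraries at 8 h stand above all others, a pattern that the rule favours. In EGR2 and FOS every 24 h library lies above every 8 h library.

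Signalling genes were 15 members, with medians of 0.69 at 8 h and 0.12 at 24 h, and 6 of them were below 0 at 24 h. SIPA1L3 encodes a protein with a GTPase-activating domain for Rap, which links cell polarity to adhesion. SIPA1L3 (ENSG00000105738, chr19:37907228-38208372, plus strand) had 6407, 6931 and 6669.7 normalised counts with AU-15330 at 8 h, against 2863 and 2600.0 with DMSO. At 24 h SIPA1L3 had 2108, 1985 and 1863 with AU-15330, against 2543, 2241 and 3029 with DMSO. The AU-15330 libraries lay wholly above DMSO at 8 h and wholly below it at 24 h, while DMSO differed by -0.08 ± 0.10 between the times. The difference was 1.27 ± 0.10 at 8 h and -0.37 ± 0.09 at 24 h, and AU-15330 differed by -1.72 ± 0.09 between the times, the lowest value of any member.

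SIPA1L3 and DPF1 lie tail to tail on chromosome 19, with 2.63 kb between them and on opposite strands. The sources give no counting settings, strand use among them, so how reads near their facing ends were assigned cannot be told. Of 9 other tested genes within 250 kb, the nearest beyond DPF1 were SPINT2, with a difference of -0.04 ± 0.11 at 8 h (limma, adjusted p = 0.806), and YIF1B, with 0.07 ± 0.07 (limma, adjusted p = 0.441). Neither passed the test. Of the 9, 4 passed at 8 h, 2 higher and 2 lower, against a background of 44.4% of all tested genes in either direction. The count is near that share, and nothing is read from it. The 4 were FAM98C at 0.78 ± 0.14 (limma, adjusted p = 0.00105), PSMD8 at 0.17 ± 0.05 (adjusted p = 0.0221), ZNF607 at -0.32 ± 0.11 (adjusted p = 0.039) and KCNK6 at -0.86 ± 0.23 (adjusted p = 0.0106).

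WNT7B (chr22:45920362-45977129, minus strand), a secreted ligand of the Wnt pathway, had 675, 881 and 841 normalised counts with AU-15330 at 8 h, against 287 and 331 with DMSO. At 24 h WNT7B had 263, 248 and 306 with AU-15330, against 223, 223 and 277 with DMSO. The 24 h libraries overlapped, and both treatments were lower than at 8 h. WNT7B differed by 1.21 ± 0.13 at 8 h and 0.14 ± 0.12 at 24 h. VAV3 (chr1:107571160-107965144, minus strand), a guanine nucleotide exchange factor downstream of antigen receptors, had 407, 409 and 413 with AU-15330 at 8 h, against 166 and 158 with DMSO. Its 24 h levels were 273, 206 and 311 with AU-15330 and 263, 360.2 and 288 with DMSO, which overlap. VAV3 differed by 1.08 ± 0.14 at 8 h and -0.17 ± 0.13 at 24 h. PRKCB (chr16:23835946-24220611, plus strand), the protein kinase C isoform that carries B cell receptor signals to NF-kappaB, had 822, 1517 and 1112 with AU-15330 at 8 h, against 522 and 532 with DMSO. The AU-15330 libraries were widely spread but all above DMSO. At 24 h PRKCB had 515, 495 and 600.5 with AU-15330, against 393, 708 and 475 with DMSO, and its difference was 1.00 ± 0.24 at 8 h and 0.06 ± 0.21 at 24 h.

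MAP2K3 (chr17:21284672-21315240, plus strand), the kinase that phosphorylates p38, was among the most abundant members. It had 9862, 10504 and 9589.9 normalised counts with AU-15330 at 8 h, against 6118 and 6274 with DMSO. At 24 h MAP2K3 had 5119.6, 5234 and 4656 with AU-15330, against 6052, 6534 and 5975 with DMSO. The DMSO ranges of both times overlapped, and the AU-15330 libraries lay above them at 8 h and below them at 24 h, with differences of 0.68 ± 0.06 at 8 h and -0.30 ± 0.05 at 24 h. MPZL1 (chr1:167721192-167791919, plus strand), a cell surface glycoprotein that binds the phosphatase SHP-2, had 16083, 16366 and 17004 with AU-15330 at 8 h, against 10606 and 10683 with DMSO. At 24 h it had 7070.1, 7239.7 and 7705 with AU-15330, against 9291, 9244 and 8878 with DMSO. The groups were apart at both times and the spread was small. MPZL1 differed by 0.63 ± 0.04 at 8 h and -0.31 ± 0.04 at 24 h.

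MOB3A, of the MOB family of kinase adaptors, had 2268, 2464 and 2549 normalised counts with AU-15330 at 8 h, against 1481 and 1300.3 with DMSO, and 1665, 1418 and 1664 at 24 h against 2173, 1991 and 2019. Its libraries were apart both times, with differences of 0.78 ± 0.09 at 8 h and -0.37 ± 0.08 at 24 h. RHEBL1, a small GTPase related to the mTORC1 activator RHEB, had 349, 291 and 323 with AU-15330 at 8 h against 141 and 133 with DMSO, and 285, 235 and 261 at 24 h against 289, 307 and 312. For RHEBL1 the 24 h gap between the groups was narrow, and the difference was 0.95 ± 0.10 at 8 h and -0.18 ± 0.09 at 24 h. IRS1, the docking protein of the insulin and IGF receptors, differed by 0.78 ± 0.22 and 0.12 ± 0.19. The remaining signalling members, RALGPS1, EGLN1, VEGFA, PAQR3, ULK3 and SIGIRR, differed by 0.51 to 0.69 at 8 h and 0.20 to 0.23 at 24 h, close under the 24 h threshold.

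Genes of the cytoskeleton and of membrane traffic were 12 members, with medians of 0.61 at 8 h and 0.07 at 24 h, and 5 were below 0 at 24 h. AHNAK (chr11:62433542-62556235, minus strand), a giant scaffold protein at the plasma membrane, had 5983, 7472 and 7898 with AU-15330 at 8 h, against 3139 and 3174 with DMSO. At 24 h AHNAK had 2621, 3605 and 4532 with AU-15330, against 4454, 5798 and 5984 with DMSO. One AU-15330 library at 24 h lay just above the lowest DMSO library, so the groups overlapped narrowly. The difference was 1.15 ± 0.20 at 8 h and -0.61 ± 0.18 at 24 h.

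TLN2 (chr15:62390526-62844631, plus strand), a talin that ties integrins to actin, had 445, 827 and 849 normalised counts with AU-15330 at 8 h, against 343 and 224 with DMSO. At 24 h TLN2 had 592, 359 and 435 with AU-15330, against 688, 725 and 632 with DMSO. The first AU-15330 library at 8 h was near the DMSO libraries, and DMSO was higher at 24 h by 1.13 ± 0.26. TLN2 differed by 1.13 ± 0.26 at 8 h and -0.53 ± 0.23 at 24 h. RAB30, a Golgi small GTPase, had 3422, 3515 and 3557 with AU-15330 at 8 h, against 1954 and 1866 with DMSO, and 1946, 1875 and 2461 at 24 h against 2282, 2370.3 and 2011. Its AU-15330 libraries returned to the range of DMSO, with differences of 0.85 ± 0.10 at 8 h and -0.09 ± 0.09 at 24 h. The other 8 members here differed by 0.51 to 0.65 at 8 h. They included RABGGTA, the enzyme subunit that prenylates Rab proteins, COG6 of the Golgi tethering complex, AP2A2 of the clathrin adaptor AP-2, the palmitoyltransferase ZDHHC9 and ATP6V1A of the vacuolar proton pump, beside SCAPER, FAM114A2 and HEATR5A.

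**Figure D4:**
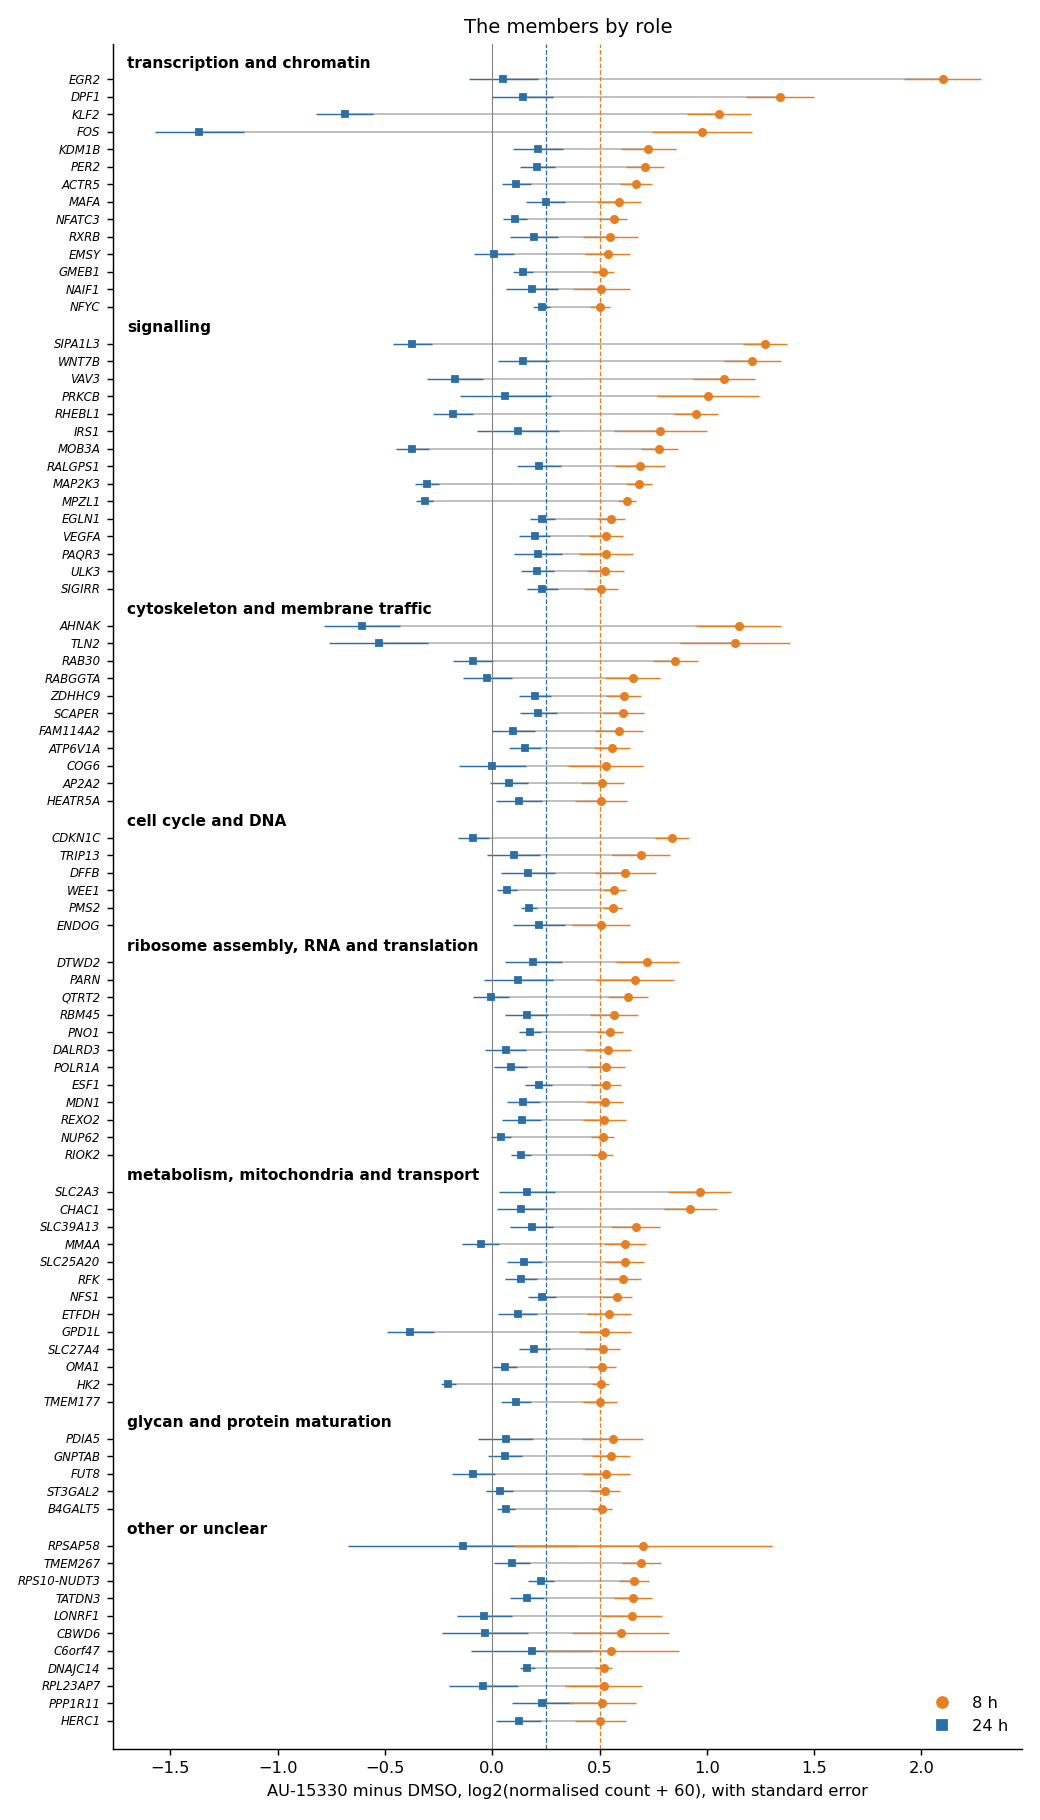
AU-15330 minus DMSO on the log2(normalised count + 60) scale for the members at 8 h (orange circles) and 24 h (blue squares), by role, with the standard error of the fit, leaving out members that are not reported. Dashed lines mark 0.5 and 0.25. In every role most 8 h values lie between 0.5 and 0.75, as they do for 71 of the 89 members.

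Cell cycle and DNA genes were 6 members, with medians of 0.59 at 8 h and 0.13 at 24 h. CDKN1C encodes p57, an inhibitor of cyclin-dependent kinases. The CDKN1C entry that met the rule (ENSG00000273707) had 10303, 9748 and 9143 normalised counts with AU-15330 at 8 h, against 5050.2 and 5802 with DMSO. At 24 h it had 3443, 3149.6 and 3242 with AU-15330, against 3719, 3168 and 3591 with DMSO. Both treatments were lower at 24 h and their libraries overlapped. The difference was 0.84 ± 0.08 at 8 h and -0.09 ± 0.07 at 24 h. This entry is not on the primary assembly, and the one on chromosome 11 differed by -0.01 at 8 h and 0.24 at 24 h, from 8 h means of 947 counts with AU-15330 and 948 with DMSO. With both entries summed the differences were 0.74 and -0.05, and how reads were split between the copies cannot be told from the table. WEE1, the kinase that holds back entry into mitosis, had 11170.3, 11575 and 11235 with AU-15330 at 8 h, against 7912 and 7326 with DMSO. At 24 h WEE1 had 9776, 9628 and 10096 with AU-15330, against 8781, 9491 and 9860.2 with DMSO, which overlap, and its difference was 0.57 ± 0.05 at 8 h and 0.07 ± 0.05 at 24 h. TRIP13, an ATPase of the spindle checkpoint, PMS2 of mismatch repair, and the nucleases DFFB and ENDOG differed by 0.51 to 0.69 at 8 h.

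Ribosome assembly, RNA and translation genes were 13 members, with medians of 0.53 at 8 h and 0.13 at 24 h. POLR1A (chr2:86020216-86106155, minus strand), the largest subunit of RNA polymerase I, had 12458, 11953 and 13066 normalised counts with AU-15330 at 8 h, against 9404 and 7896 with DMSO. At 24 h POLR1A had 8148, 9282 and 9949 with AU-15330, against 8189, 8606 and 8928 with DMSO. Its 24 h libraries overlapped, and the difference was 0.53 ± 0.09 at 8 h and 0.09 ± 0.08 at 24 h. NUP62, a nucleoporin of the central channel, had 8418, 8772 and 8716 with AU-15330 at 8 h, against 6262 and 5802 with DMSO, and 7192, 7794 and 7189 at 24 h against 7488, 7149 and 6925. NUP62 differed by 0.51 ± 0.05 at 8 h and 0.04 ± 0.05 at 24 h. The ribosome assembly factors PNO1, ESF1, MDN1 and RIOK2 differed by 0.51 to 0.55 at 8 h and 0.13 to 0.22 at 24 h. Others were PARN, a deadenylase, REXO2, a mitochondrial oligoribonuclease, QTRT2, a subunit of the enzyme that places queuine in tRNA, DTWD2, RBM45 and DALRD3, between 0.52 and 0.72 at 8 h.

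Metabolism, mitochondria and transport accounted for 13 members, with medians of 0.58 at 8 h and 0.13 at 24 h. SLC2A3 (chr12:7919230-7936275, minus strand), the high-affinity glucose transporter GLUT3, had 172, 217 and 265 normalised counts with AU-15330 at 8 h, against 86.4 and 75.8 with DMSO. At 24 h SLC2A3 had 345, 383 and 359 with AU-15330, against 307, 371 and 279 with DMSO. As for EGR2, both treatments were higher at 24 h and the libraries overlapped. SLC2A3 differed by 0.97 ± 0.15 at 8 h and 0.16 ± 0.13 at 24 h. HK2 (chr2:74833981-74893359, plus strand), the hexokinase of the first step of glycolysis, had 8589, 8753 and 8198 with AU-15330 at 8 h, against 6035 and 5926 with DMSO, and 5865, 5957 and 5990.2 at 24 h against 6729, 6869.6 and 6951. The HK2 libraries were apart in opposite directions, with differences of 0.50 ± 0.04 and -0.20 ± 0.03. GPD1L, related to the cytosolic glycerol-3-phosphate dehydrogenase, had 1291, 1334 and 1287 with AU-15330 at 8 h, against 862 and 913 with DMSO, and 689, 723 and 936 at 24 h against 1119.9, 1083 and 897. One library on each side made the 24 h groups of GPD1L overlap, and its difference was 0.53 ± 0.12 at 8 h and -0.38 ± 0.11 at 24 h. The others, all between 0.50 and 0.67 at 8 h, were the carnitine-acylcarnitine carrier SLC25A20, the electron transfer enzyme ETFDH, MMAA of cobalamin handling, riboflavin kinase RFK, the cysteine desulfurase NFS1, the mitochondrial protease OMA1, TMEM177, SLC27A4 and the zinc transporter SLC39A13.

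CHAC1 (chr15:40952962-40956519, plus strand), which degrades glutathione and is a classic target of the stress factor ATF4, had 562, 577 and 487 normalised counts with AU-15330 at 8 h, against 282 and 234 with DMSO. At 24 h CHAC1 had 423, 510.3 and 503 with AU-15330, against 378, 436 and 481 with DMSO. AU-15330 differed by -0.16 ± 0.11 and DMSO by 0.63 ± 0.12 between the times, and the 24 h libraries overlapped. The difference was 0.92 ± 0.12 at 8 h and 0.13 ± 0.11 at 24 h. The CHAC1 promoter is shown because it was the only member promoter in the table with the ATF4-type letters TGATGCAA. It covers chr15:40953221-40953520 on the plus strand (GRCh38.p14, RefSeq), with those letters, which lie here on the other strand as TTGCATCA, and its 3 CCAAT boxes (one of them reversed) in capitals:
CHAC1: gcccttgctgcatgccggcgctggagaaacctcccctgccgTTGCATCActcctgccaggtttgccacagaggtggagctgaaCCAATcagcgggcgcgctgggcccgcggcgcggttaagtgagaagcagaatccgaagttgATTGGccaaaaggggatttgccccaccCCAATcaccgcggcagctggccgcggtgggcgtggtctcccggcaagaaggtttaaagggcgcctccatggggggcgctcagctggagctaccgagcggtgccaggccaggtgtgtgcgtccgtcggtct

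Glycan and protein maturation enzymes were 5 members, FUT8, ST3GAL2, B4GALT5, GNPTAB and PDIA5, with 8 h differences of 0.51 to 0.56 and 24 h differences of -0.09 to 0.06. FUT8 adds core fucose to N-glycans, ST3GAL2 and B4GALT5 add sialic acid and galactose, and GNPTAB makes the mannose-6-phosphate tag of lysosomal enzymes. The last 11 members had other or unclear roles, from 0.50 to 0.70 at 8 h. They were the ubiquitin ligase HERC1, the phosphatase inhibitor PPP1R11, DNAJC14, LONRF1, TATDN3, TMEM267, C6orf47, CBWD6, the pseudogenes RPSAP58 and RPL23AP7, and the read-through transcript RPS10-NUDT3. RPSAP58 had 280.5, 545 and 824 with AU-15330 at 8 h, against 148 and 523 with DMSO, so it overlapped at the time that chose it, and without the first DMSO library its 8 h difference was -0.04. The pseudogenes, the read-through transcript and CBWD6, which has near-identical copies, share sequence with other genes, and their counts are uncertain.

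Of the 89 members, 9 had several entries in the table under 1 symbol. Summing all entries of a symbol took PARN, C6orf47, RXRB, PPP1R11 and AP2A2 out of the rule, with summed differences of 0.31, 0.30, 0.57, 0.43 and 0.40 at 8 h, RXRB because its 24 h value became 0.37. The other 84 still met it. RABGGTA and MDN1 each had a pair of entries with identical values.

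Length and promoter make-up were not used by the rule, whereas level was. The members' median gene length was 46.1 kb (83 members placed on the primary assembly), against 33.1 kb for all genes that meet the level rule and 31.6 kb for the 495 genes that kept their difference. Their median DMSO level at 8 h was 1165 normalised counts, against 2288 for all and 911 for those 495. That level enters the 8 h difference, where a low value helps a gene to meet the rule, so nothing is read from it. Of the 89, 70 matched a RefSeq promoter of 300 bases. The median GC content of these promoters was 64.8%, against 67.7% for those of the persisting genes and 65.3% for all genes that meet the level rule. These are descriptions, and no test of the difference was run.

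Promoter letters were searched on both strands. The AP-1 letters TGANTCA stood in 4 member promoters (5.71%, against 3.66% of those of all genes that meet the level rule and 7.76% of the whole table), those of VAV3, MAP2K3, FUT8 and OMA1. CRE letters TGACGTCA stood in 2 (2.86% against 3.59% and 1.98%), those of PMS2 and MDN1. The E-box CACGTG stood in 9 (12.9% against 11.04% and 7.44%), and CCAAT in 25 (35.7% against 38.3% and 35.7%). TATAAA stood in 4 (5.71% against 4.82% and 11.95%), those of VAV3, FOS, C6orf47 and COG6. The ATF4-type letters TGATGCAA, in CHAC1 alone, made 1.43% against 0.447% and 0.923%. The sterol letters TCACNCCAC stood in SLC39A13 (1.43% against 1.13% and 1.15%), and the heat shock letters TTCNNGAA in ACTR5, PARN, PMS2 and NAIF1 (5.71% against 5.94% and 7.84%). GGGANTTCC (kappaB), GAGGAAGT (PU.1 type) and TTCCNGGAA (STAT) stood in no member promoter of this window, against 2.43%, 2.56% and 1.14% of those of all genes that meet the level rule and 1.86%, 2.54% and 1.22% of the whole table. Each motif was counted separately, whether or not its letters overlapped another's.

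Of the members, 10 stood in 5 of 23 gene lists, and the genes of those lists outside the 89 were tested with limma, with p-values adjusted over all 12707 genes tested. At 8 h 23.0% of tested genes passed as higher with AU-15330 and 21.4% as lower, and at 24 h 24.7% as higher and 26.2% as lower. The median difference of all tested genes was 0.02 at 8 h and 0.01 at 24 h. These shares and medians include the members, whereas the list counts and medians below leave them out. The rule chose members for being higher at 8 h, so leaving them out lowers the 8 h rises of their lists by construction. Among immediate early transcription factors, the list of EGR2, FOS and KLF2, 5 of 19 other genes rose at 8 h, 5 fell and 9 did not pass, with a median of 0.02. At 24 h 11 rose and 7 fell, with a median of 0.36. Without the first DMSO library 3 rose at 8 h. ATF3 fell at both times, with differences of -1.56 ± 0.22 (limma, adjusted p = 0.000159) and -1.14 ± 0.20 (adjusted p = 0.000507). KLF10 fell as well, by -0.79 ± 0.09 at 8 h (limma, adjusted p = 4.57e-05) and -0.32 ± 0.08 at 24 h (adjusted p = 0.00714). MYC, the growth-promoting factor, rose at 8 h by 0.35 ± 0.03 (limma, adjusted p = 1.42e-06) and fell at 24 h, with a difference of -0.19 ± 0.02 (adjusted p = 5.11e-05). SRF, the factor that drives FOS and EGR2 on serum stimulation, rose by 0.56 ± 0.04 (limma, adjusted p = 2.11e-06) and 0.36 ± 0.04 (adjusted p = 1.89e-05).

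The list of ribosome biogenesis genes and MYC targets, which holds POLR1A, had 23 of 45 other genes higher at 8 h and 1 lower, with a median of 0.15. At 24 h 4 of them were higher and 19 lower, with a median of -0.07. Under quantile normalisation the genes lower at 8 h were 4 and those higher at 24 h were 8, and without 1 of 4 single libraries 2 were lower at 8 h. WDR3, a small-subunit processome protein, rose at 8 h by 0.43 ± 0.04 (limma, adjusted p = 1.35e-05) and had a difference of -0.17 ± 0.04 at 24 h (adjusted p = 0.00368), which did not pass under quantile normalisation (-0.08, adjusted p = 0.0784). NOP14 rose by 0.27 ± 0.03 at 8 h (limma, adjusted p = 4.36e-05) and stood at -0.03 ± 0.03 at 24 h (adjusted p = 0.427). WDR12 rose by 0.39 ± 0.04 and 0.19 ± 0.04 (limma, adjusted p = 1.82e-05 and 0.00115). GART, of purine synthesis, rose by 0.40 ± 0.04 and 0.29 ± 0.03 (limma, adjusted p = 9.12e-06 and 3.04e-05).

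Around CHAC1, the ATF4 and integrated stress response list had 12 of 30 other genes higher and 12 lower at 8 h, with a median of -0.04, and 11 higher and 12 lower at 24 h, with a median of -0.01. The amino acid transporter SLC7A5 rose by 1.66 ± 0.05 at 8 h and 1.36 ± 0.05 at 24 h (limma, adjusted p = 3.54e-09 and 1.40e-09), and its partner SLC3A2 by 0.53 ± 0.04 and 0.73 ± 0.04 (adjusted p = 1.42e-06 and 2.21e-08). SHMT2, of mitochondrial one-carbon metabolism, fell, with differences of -0.76 ± 0.03 and -1.13 ± 0.03 (limma, adjusted p = 3.62e-08 and 4.31e-10). The tryptophanyl-tRNA synthetase WARS1 fell as well, with -0.97 ± 0.04 and -1.11 ± 0.04 (limma, adjusted p = 3.24e-08 and 1.74e-09).

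Beside DPF1, the list of BAF and PBAF subunits had 9 of 26 other genes higher and 3 lower at 8 h, with a median of 0.07, and 8 higher and 7 lower at 24 h, with a median of 0.03. BICRAL rose by 0.88 ± 0.06 and 0.78 ± 0.05 (limma, adjusted p = 4.84e-07 and 2.56e-07). ARID1B rose by 0.48 ± 0.05 at 8 h (limma, adjusted p = 2.05e-05) and 0.13 ± 0.05 at 24 h (adjusted p = 0.0278). Without the first or the third AU-15330 library or the first DMSO library at 24 h, ARID1B did not pass at 24 h, with adjusted p of 0.074, 0.065 and 0.11. SMARCA2 fell, with -0.48 ± 0.08 and -0.87 ± 0.07 (limma, adjusted p = 0.000476 and 1.52e-06), and ACTB with -0.37 ± 0.05 and -0.35 ± 0.04 (adjusted p = 9.47e-05 and 3.85e-05).

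HK2, SLC2A3, EGLN1 and VEGFA came from the list of glycolysis and hypoxia genes. Of its 29 other genes, 3 rose and 14 fell at 8 h, with a median of -0.22, and 8 rose and 15 fell at 24 h, with a median of -0.10. These counts leave out the 4 members, all chosen for being higher at 8 h, so the list as a whole fell less one-sidedly. Without the second DMSO library 1 rose at 8 h. The phosphofructokinases PFKM and PFKL fell, PFKM with -1.24 ± 0.07 at both times (limma, adjusted p = 2.69e-07 and 5.44e-08) and PFKL with -0.48 ± 0.05 and -0.68 ± 0.05 (adjusted p = 1.89e-05 and 3.10e-07). EGLN3, a paralogue of the oxygen sensor EGLN1, fell with -0.82 ± 0.08 and -0.72 ± 0.07 (limma, adjusted p = 1.18e-05 and 8.40e-06). The peptide hormone gene ADM rose by 1.35 ± 0.09 and 1.85 ± 0.08 (limma, adjusted p = 6.05e-07 and 9.69e-09). EGLN1 itself had 3450.1, 3694 and 4025 normalised counts with AU-15330 at 8 h, against 2487 and 2539.7 with DMSO, and 3026, 3169 and 3201 at 24 h against 2707, 2764 and 2497. VEGFA had 1828, 1880.5 and 1708 with AU-15330 at 8 h, against 1283 and 1179 with DMSO, and 1679, 1789 and 1665 at 24 h against 1341, 1526 and 1593. For both EGLN1 and VEGFA the AU-15330 libraries lay above all DMSO libraries of the same time at 8 h and at 24 h.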

How the data were processed

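RNA-seq of Z138 cells was deposited as 1 table of 20318 gene entries. The submitters' processing notes name FastQC 0.11.9, DESeq2 1.24.0, R 4.3.2, Trimmomatic 0.40, kallisto 0.46.1 and build GRCh38.p13 without their order or settings; strand use and each sample's kit are not given in the sources used here. Although named for log CPM, the table's deposited log2 values have a shared minimum of 10.36053, the form of a variance-stabilising transform, and were inverted to normalised counts, which need not be whole, so no count model was used. Of 12 columns of values 1 repeats another exactly and was not used. Groups came from sample titles.

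Differences are on log2(normalised count + 60), which understates folds of low genes. Genes with at least 60 normalised counts in at least 3 libraries (12707, all 89 members included) were fitted together with 1 mean per group in limma 3.58.1 under R 4.3.3 (residual degrees of freedom 7, mean-dependent prior variance, Benjamini-Hochberg threshold 0.05), checked on simulated data. For a symbol with several entries the one with the highest mean was used. The labels do not say whether replicates were separate cultures, so p-values may reflect technical spread alone. Coordinates are GENCODE 29 (GRCh38), promoters RefSeq (GRCh38.p14). Members, lists, roles and motifs were chosen with earlier results of these data known. Named members are the 12 with the largest 8 h difference, the 10 that narrowed most, the 8 lowest at 24 h, the 5 most abundant, those in lists and those nearest the thresholds; others named were chosen after their values were seen. Of each list, the 4 other genes with the smallest p at 8 h are named. Alternatives were other pseudocounts (15, 240), the deposited scale, other scalings and filters, a replicate block, each library left out, and, chosen after seeing the data, summed entries. A few members are counted but not reported here by name.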

Additional observations from a re-analysis of the deposited data

Results flagged for a closer look

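In 9 members every AU-15330 library lay above every DMSO library at 8 h and below every DMSO library at 24 h, against a background of 2.74% of the 9963 genes that meet the level rule. The 24 h differences were -1.37 for FOS, -0.69 for KLF2, -0.53 for TLN2, -0.37 for SIPA1L3, -0.37 for MOB3A, -0.31 for MPZL1, -0.30 for MAP2K3, -0.20 for HK2 and -0.18 for RHEBL1. Nothing is read from that count, and the change of the difference between the times was not tested, since the rule that chose the members used the values of both times. At 24 h alone, 9 of the 89 members lay wholly below DMSO, against a background of 31.2%.

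Among the named list genes outside the 89, the AU-15330 minus DMSO difference at 24 h minus that at 8 h passed the interaction test (limma, Benjamini-Hochberg over all genes tested) in 12. These genes were named for a small p at 8 h, and the 8 h difference enters this test, so the choice bears on its outcome. The share of all tested genes passing it was not counted. Nothing is read from the number passing. The change was negative in WDR3 (-0.60, adjusted p = 8.04e-05), MYC (-0.54, adjusted p = 6.76e-06), SMARCA2 (-0.39, adjusted p = 0.0277), SHMT2 (-0.37, adjusted p = 0.000457), ARID1B (-0.34, adjusted p = 0.00604), SLC7A5 (-0.30, adjusted p = 0.0131), NOP14 (-0.30, adjusted p = 0.000905), SRF (-0.20, adjusted p = 0.0359) and WDR12 (-0.20, adjusted p = 0.0267). It was positive in ADM (0.51, adjusted p = 0.0156), KLF10 (0.47, adjusted p = 0.0252) and SLC3A2 (0.20, adjusted p = 0.023). MYC and WDR3, like the 9 members above, were higher with AU-15330 at 8 h and lower at 24 h.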

How the results depend on the processing

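The rule gave 89 genes as reported and 56 with 240 added to the counts (51 of them members). On the deposited scale, which shrinks differences of low genes by construction, it gave 15 (10 members). With 15 added it gave 96 (87 members), with library medians centred 87 (82), with quantile normalisation 87 (69), with a group mean of at least 1000 it gave 65, and with symbols of a single entry 80. Leaving out 1 library gave 88 to 127 genes, of which 71 to 85 were members, with 127 without the first DMSO library at 8 h. The members that met the rule without each library, with both other pseudocounts and with both scalings were 28. This number does not cover the deposited scale or the minimum of 1000, under both of which DPF1, WNT7B, TLN2 and VAV3, for example, no longer met the rule.

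The 8 h difference of RPSAP58 ran from -0.042 without the first DMSO library to 1.45 without the second. No other 8 h difference of a member was reversed under these alternatives. This does not cover the 24 h differences, most of which were small. The 24 h difference of RPSAP58 was -0.14 with all libraries. Without the first AU-15330 library at 24 h it turned positive and passed the 24 h threshold, so RPSAP58 no longer met the rule. Genes passing at 8 h were 5645 as reported and 4426 to 5710 with 1 library left out, and at 24 h 6456 and 5771 to 6466. A replicate block gave 5455 and 6452. Same-numbered libraries of different groups correlated in their deviations at -0.03 to 0.09 (median 0.04) and others at -0.06 to 0.03 (median -0.01). The labels give the second DMSO column at 8 h to more than 1 replicate, and it was numbered here by its column name. The replicate block and the correlations with that library rest on this numbering. Same-numbered AU-15330 libraries of 8 h and 24 h stood at 0.065, 0.071 and 0.088. These values are small but lean towards a shared structure, which the main fit did not model: it took the samples to share only a number. Of the named list genes, 4 values lost their call, all given above for WDR3 and ARID1B. DMSO at 8 h rests on 2 libraries, and the widest standard error of a member at 8 h was 0.60, for RPSAP58.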
